A study of Rattus norvegicus with 9 samples.

Results

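The kinetochore, centromere and spindle checkpoint genes of rat aortic smooth muscle cells are described here across 3 treatments. The genes were taken by name: 30 symbols from a list, and any other symbol made of Cenp and a single lower-case letter, which added 13. All 30 listed symbols had a row, so the group holds 43 genes of the 32623 in the table. A pair of genes that the name pattern brought in belong to the group by symbol more than by function: Cenpj encodes a centriole assembly protein, and the product of Cenpv is known from pericentric chromatin.

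RNA was sequenced from 9 libraries of wild-type rat primary aortic smooth muscle cells (VSMC), 3 per group. Control cells received DMSO alone. PDGF-BB, a dimer of platelet-derived growth factor B chains and a mitogen of smooth muscle, was given for 24 h. Its dose is 10 ng/mL in the sample labels and 20 ng/mL in the series design. PDGF-BB+PTUPB cells were given 0.5 µM PTUPB, an inhibitor of both cyclooxygenase-2 and soluble epoxide hydrolase, 2 h before the same growth factor. All groups shared growth in 20% serum, passages 4 to 8, 12 h without serum and treatment in 2% serum. There was no group with PTUPB and no growth factor, so what the compound does alone was not measured. Nothing in the labels tells if replicate libraries stem from different animals or cultures. All p-values therefore reflect library-to-library spread, part or all of which could be technical.

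The kinetochore is the protein assembly that joins a chromosome to the spindle. It is built on chromatin marked by the histone variant CENP-A, which a loading machinery of HJURP and the MIS18 proteins renews after each division. On it sit an inner layer, the constitutive centromere-associated network (CCAN), and an outer layer, the KMN network, whose NDC80 complex grips microtubules. The spindle checkpoint (BUB and MAD proteins and the kinase TTK) holds back anaphase until every kinetochore is attached. Many of these genes are transcribed mainly in G2 and mitosis, so in bulk RNA their level is commonly read with the share of dividing cells. Here more cells in G2 and mitosis and more RNA per such cell cannot be told apart.

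Library totals ran from 12729187 to 16911050 counts. Summed FPKM (fragments per kilobase of exon, scaled to library depth) of 7 smooth muscle markers were 1703 to 2323 in Control, 2139 to 2503 in PDGF-BB and 2168 to 2426 in PDGF-BB+PTUPB, most of it Tagln, and of these Des reached at most 0.18 and Myocd at most 1.0 in any library. Of the 5 tested, Acta2 (0.692-fold) and Myh11 (0.486-fold) were called lower with PDGF-BB (edgeR adjusted p = 0.00898 and 3.26e-04), and Myh11 higher with PTUPB (1.46-fold, 0.0210). Of 6 endothelial markers 3 were at 0 in all libraries (Cdh5, Kdr and Tie1), and of 7 macrophage and leukocyte markers 3 were (Ptprc, Cd163 and Cd3e). The endothelial list summed to 12.2 to 13.0 FPKM in Control, 12.4 to 14.3 in PDGF-BB and 14.9 to 17.3 in PDGF-BB+PTUPB, nearly all of it Egfl7, which was called higher with PTUPB (1.25-fold, edgeR adjusted p = 0.0429). The leukocyte list, mostly Cd68, summed to 2.18 to 4.58, 3.62 to 3.76 and 2.44 to 3.91 FPKM. The adventitial fibroblast markers, 6 in number with 1 of them (Ly6al) at 0 throughout, moved with the groups, with 3 of 4 tested called lower with PDGF-BB and 3 of 4 higher with PTUPB. They summed to 574 to 639 FPKM in Control, 249.8 to 309.99 in PDGF-BB and 451 to 566 in PDGF-BB+PTUPB, and the part of these marker shifts in the results below was not tested. A pair of libraries stood apart by gene length. In Control replicate 2 and PDGF-BB replicate 3 long genes read low against the other libraries of the group, with Spearman correlations of -0.396 and -0.384 across the 11197 tested genes, which are not independent replicates. Counts of calls are given without 1 or both of them or as a range over alternatives. PDGF-BB folds of Cenpe, Cenpf, Sgo1 and Sgo2 are given with and without them.

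Promoter letters of the members are described first, and whether they bear on the changes that follow was not tested. The cell cycle genes homology region (CHR, letters TTTGAA, on the other strand TTCAAA) is a short element known from promoters of genes active in G2 and mitosis, where the DREAM and MuvB complexes bind. RefSeq promoters of build GRCr8, from 250 bases before to 50 bases after the annotated start, were matched by symbol for 38 of the 43 genes, all but Cenpt, Sgo2, Zw10, Zwilch and Zwint. TTTGAA stood on either strand in 17 of 38 (44.74%), against 5339 of 27457 genes with a promoter (19.44%). Within 50 bases of the start, a window chosen after the positions were seen, it stood in 13 of 38 (34.21%) against 5.70% of all genes. The 13 were Bub1b, Cenpf, Cenpi, Cenpm, Cenpo, Cenpw, Knstrn, Mad2l1, Ndc80, Nuf2, Ska1, Spdl1 and Ttk, and each of them was called higher with PDGF-BB, as were 34 of the 38 matched genes. In the whole window the letters stood in 15 of those 34 and in 2 of the 4 matched genes without a call (Cenpc and Mis12). The 6 shown are those of the 13 with the largest PDGF-BB rise. Oip5, Cenpa, Spc24 and Cenph rose by more than Nuf2 of the 6, and Cenpe by more than Ndc80. All of these lacked the letters within 50 bases of the start. For the 6, the 50 bases on either side of the start are given 5′ to 3′ on the gene's strand, with the searched letters in capitals. They lie at chr1:29353920-29354019 (Cenpw, plus strand), chr3:126254646-126254745 (Knstrn, plus), chr7:115639318-115639417 (Cenpm, minus), chr3:126017017-126017116 (Bub1b, plus), chr13:84255549-84255648 (Nuf2, minus) and chr9:118887480-118887579 (Ndc80, minus).
Cenpw: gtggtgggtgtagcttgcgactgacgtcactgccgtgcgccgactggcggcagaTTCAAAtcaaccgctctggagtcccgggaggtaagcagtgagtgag
Knstrn: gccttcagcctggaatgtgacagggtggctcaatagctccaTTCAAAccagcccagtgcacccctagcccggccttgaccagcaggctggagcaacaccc
Cenpm: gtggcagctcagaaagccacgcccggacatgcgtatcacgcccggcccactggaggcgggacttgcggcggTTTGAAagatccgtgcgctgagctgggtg
Bub1b: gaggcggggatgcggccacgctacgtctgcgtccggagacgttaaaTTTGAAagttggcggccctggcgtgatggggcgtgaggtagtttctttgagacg
Nuf2: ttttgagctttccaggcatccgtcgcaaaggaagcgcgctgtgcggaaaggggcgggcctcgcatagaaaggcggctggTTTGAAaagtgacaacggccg
Ndc80: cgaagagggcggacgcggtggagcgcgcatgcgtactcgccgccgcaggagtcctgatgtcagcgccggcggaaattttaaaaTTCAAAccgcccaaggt

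The 6 were picked from genes with the letters within 50 bases of the start, so that closeness is not a result. In them the letters began from 9 bases before the start (Knstrn) to 33 bases after it (Ndc80). The other motifs were searched the same way on both strands of the whole window. The variant TTTAAA was in 21.05% of the members and 14.56% of all genes, and CCAAT (the CCAAT box, with ATTGG on the other strand) in 47.37% and 39.60%. Of 4 E2F spellings, TTCCCGCC was in 13.16% of members and 2.15% of all, TTGGCGGG in 2.63% and 0.93%, and TTTCGCGC and TTTGGCGC in 0 members and in 0.36% and 0.55% of all genes. The members with TTCCCGCC were 3 of the 34 called higher with PDGF-BB and 2 of the 4 without a call. TTTAAA reads the same on both strands, and ATTGG and TTGGCGGG can share bases. A match is a run of letters in an annotated window and not a measured binding site.

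PDGF-BB against Control asks what the growth factor did to these genes. Of the 43, 38 were called higher and 0 lower (edgeR, adjusted p under 0.05 over all tested genes), where 17.3% of the 11197 tested genes were called higher and 15.8% lower. No member was lower at an unadjusted p under 0.05 either (0 of 43), and DESeq2 and limma called 0 lower. The 5 genes without a call were Zwint, Mis12, Cenpc, Cenpj and Cenpv. The median log2 change of the 43 was 2.33, beside -0.02 over all tested genes. In 39 of 43 all PDGF-BB libraries lay above all Control libraries, beside 22.6% of tested genes. Testing required 1 FPKM or more in 3 or more libraries, and all 43 met this. In 19 of them at least 1 Control library was under that value, so these passed with the help of the treated groups. With no such filter the same number, 38, was called higher. That fit held the same 43 genes, so it cannot show what their passing owed to the treated groups.

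**Figure D1:**
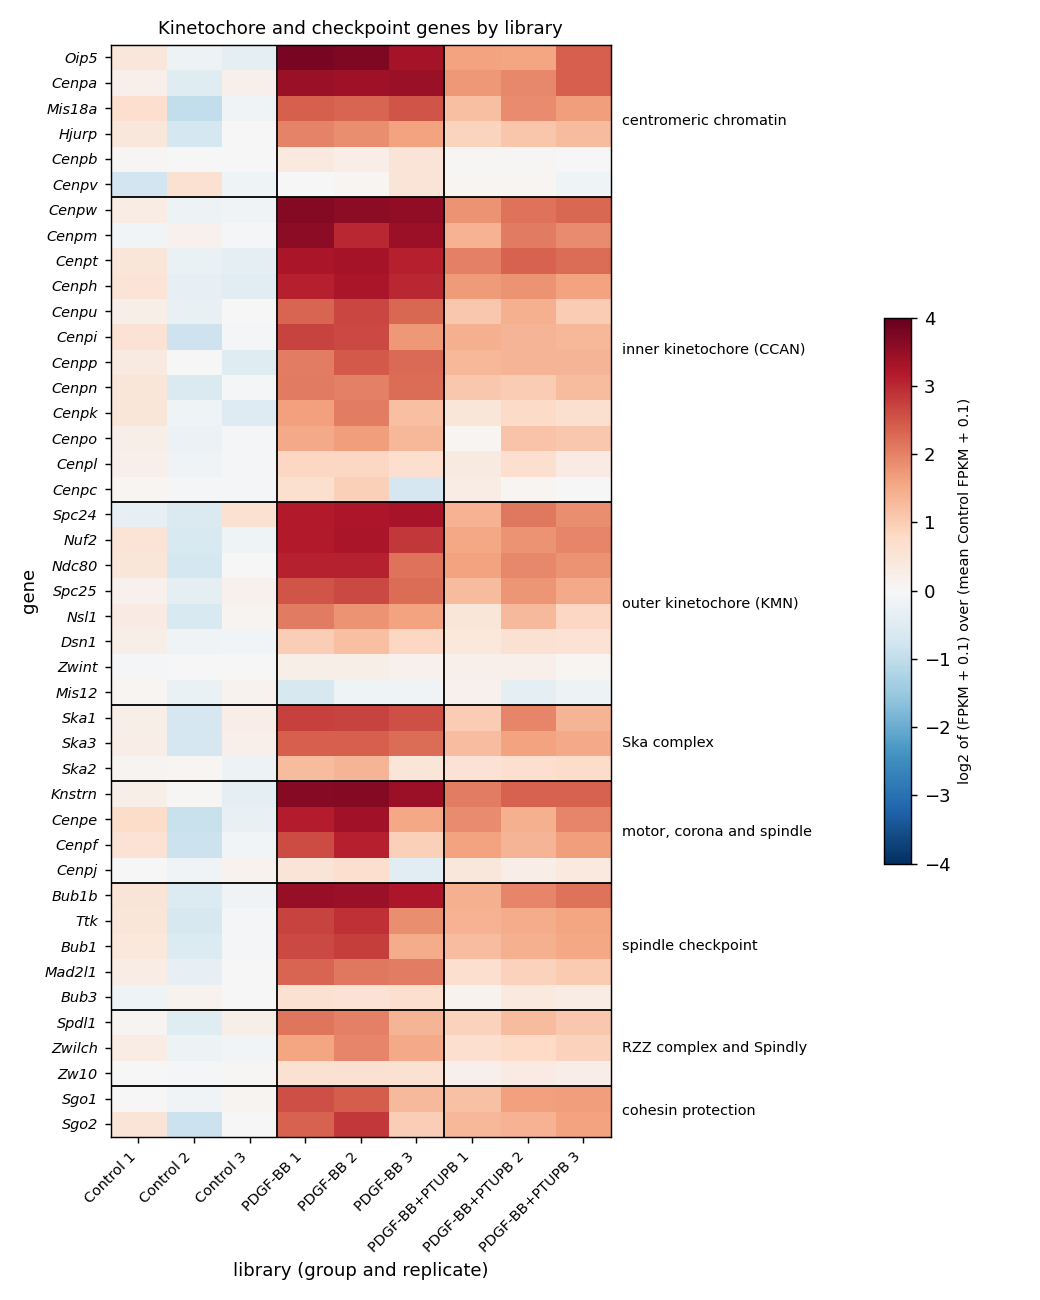
Each row is a gene, grouped by role, and each column a library. Colour gives log2 of (FPKM + 0.1) over (mean Control FPKM + 0.1), from -4 (blue) to 4 (red). Most rows are dark red in PDGF-BB and paler in PDGF-BB+PTUPB, while Zwint, Mis12, Cenpb and Cenpv stay near white.

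Of the genes for the centromeric nucleosome and its loading, 5 of 6 were called higher. Cenpa, the histone H3 variant that marks the centromere, read 1.57, 0.940 and 1.57 FPKM in Control replicates 1 to 3, 15.8, 15.3 and 15.99 in PDGF-BB and 4.73, 5.45 and 7.48 in PDGF-BB+PTUPB. No library of a group reached into the next, and the PDGF-BB libraries lay within 1 FPKM of each other. Its rise with PDGF-BB was 3.47 ± 0.22 on the log2 scale (SE, edgeR adjusted p = 7.10e-06), 11.0-fold. Oip5 encodes Mis18-beta, a subunit of the licensing complex for CENP-A loading, and stood at 0.740, 0.430 and 0.380 FPKM in Control, 8.54, 8.16 and 6.10 in PDGF-BB and 1.80, 1.75 and 3.15 in PDGF-BB+PTUPB. Its PDGF-BB rise was 13.9-fold (log2 3.79 ± 0.35), from 16 counts over the 3 Control libraries, and ranged from 2.50 to 4.11 on the log2 scale over 20 alternatives. Its partner Mis18a, the alpha subunit, read 1.21, 0.320 and 0.650, then 4.22, 4.04 and 4.64, then 1.79, 2.97 and 2.53 FPKM in the same order of groups.

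Hjurp, the chaperone that delivers CENP-A, read 2.06, 0.870 and 1.47 FPKM in Control, 6.10, 5.53 and 4.71 in PDGF-BB and 2.78, 3.30 and 3.67 in PDGF-BB+PTUPB. Its PDGF-BB rise, 3.55-fold, was smaller than that of Cenpa, at an SE of 0.26 against 0.22. Cenpb, which encodes a DNA-binding protein of centromeric repeats, was the most abundant of the 43 at 60.1 ± 1.9 FPKM in Control (SD, n = 3) and changed by only 1.26-fold, a log2 change of 0.33 ± 0.08 that nonetheless passed (edgeR adjusted p = 0.0122). Cenpv overlapped between all groups (2.34 ± 1.16 FPKM in Control, 2.71 ± 0.577 in PDGF-BB).

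In the inner kinetochore 11 of 12 genes were called higher, with log2 changes from 0.39 (Cenpc, not called) to 3.66. The largest belonged to Cenpw, a histone-fold protein that pairs with CENP-T: 1.26, 0.850 and 0.890 FPKM in Control, 13.98, 12.9 and 12.7 in PDGF-BB, and 3.70, 4.81 and 5.31 in PDGF-BB+PTUPB. The 3 groups of Cenpw did not overlap, and its PDGF-BB rise was 12.6-fold (3.66 ± 0.19, edgeR adjusted p = 3.71e-06). Cenpt itself, whose product reaches out to the NDC80 complex, read 1.05, 0.580 and 0.520, then 7.72, 8.13 and 6.91, then 3.17, 4.05 and 3.76 FPKM. Cenpt rose 10.2-fold with PDGF-BB, from 73 counts over the Control libraries (log2 2.33 to 3.72 over 20 alternatives).

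Cenpm rose 11.0-fold and Cenph 8.92-fold, subunits of the same CENP-H/I/K/M group as Cenpi (5.45-fold) and Cenpk (3.17-fold). Cenpu, Cenpo and Cenpp belong to another subcomplex (CENP-O/P/Q/U) and rose by 5.58, 2.86 and 5.13-fold. Cenpm had 41 and Cenpp 35 counts over the 3 Control libraries. Their log2 changes ranged from 2.35 to 3.62 and from 1.44 to 2.60 over 20 alternatives. Cenpn and Cenpl, whose products form a pair, rose by 4.30 and 1.66-fold. Cenpc, the scaffold that links CENP-A chromatin to the outer layer, read 5.25, 4.74 and 4.83 FPKM in Control but 7.68, 9.63 and 3.06 in PDGF-BB. The low library was PDGF-BB replicate 3, and without it Cenpc was called higher (edgeR adjusted p = 0.00271; range over 20 alternatives 0.00271 to 0.897).

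Among the 8 outer kinetochore genes the 4 subunits of the NDC80 complex rose together. Ndc80 read 2.88, 1.21 and 2.00 FPKM in Control, 17.7, 17.8 and 9.54 in PDGF-BB, and 6.33, 7.95 and 7.27 in PDGF-BB+PTUPB. Its coiled-coil partner Nuf2 read 4.15, 1.81 and 2.50, then 26.2, 27.9 and 20.8, then 8.34, 10.1 and 11.3 FPKM. In both, PDGF-BB replicate 3 was the lowest of its group, and by more in the longer gene (3427 exonic bases for Ndc80, 1890 for Nuf2).

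The other arm of the complex binds the inner kinetochore through Spc24 and Spc25. Spc24 stood at 1.00, 0.820 and 2.02 FPKM in Control, 12.4, 12.8 and 13.3 in PDGF-BB and 3.51, 5.87 and 4.87 in PDGF-BB+PTUPB. Spc25 stood at 3.62, 2.41 and 3.62, then 18.8, 20.7 and 15.5, then 7.90, 11.2 and 9.44 FPKM, with no overlap between groups (log2 change with PDGF-BB 2.44 ± 0.20, edgeR adjusted p = 2.51e-05). Per length, the mean levels in PDGF-BB were 25.0 ± 3.71 FPKM for Nuf2, 18.3 ± 2.64 for Spc25, 15.02 ± 4.75 for Ndc80 and 12.8 ± 0.495 for Spc24. Neighbours in that order lay within their spread except Nuf2 above Spc25, whose libraries did not overlap. In Control the order was Spc25, Nuf2, Ndc80 and Spc24, from 3.22 ± 0.699 down to 1.28 ± 0.647 FPKM. There the libraries of all neighbours overlapped.

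The MIS12 complex, the base of the outer layer, did not move as a unit. Nsl1 rose 3.68-fold and Dsn1 1.93-fold, whereas Mis12 read 13.2, 10.5 and 13.9 FPKM in Control, 7.97, 11.2 and 11.3 in PDGF-BB and 14.2, 9.72 and 10.8 in PDGF-BB+PTUPB, all overlapping (log2 change with PDGF-BB -0.37 ± 0.21, edgeR adjusted p = 0.190). Zwint, whose protein links the KMN network to the checkpoint, was the next most abundant member after Cenpb, at 38.95, 41.1 and 40.9 FPKM in Control, 47.5, 47.4 and 45.5 in PDGF-BB and 46.7, 46.8 and 42.2 in PDGF-BB+PTUPB. All PDGF-BB values lay above all Control values, yet the change was 1.11-fold and was not called (0.15 ± 0.07, edgeR adjusted p = 0.145). A call was made with scaling by library totals and with limma (lowest adjusted p 0.0336 over 20 alternatives), so its side of the threshold changed with the scaling and the tool.

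**Figure D2:**
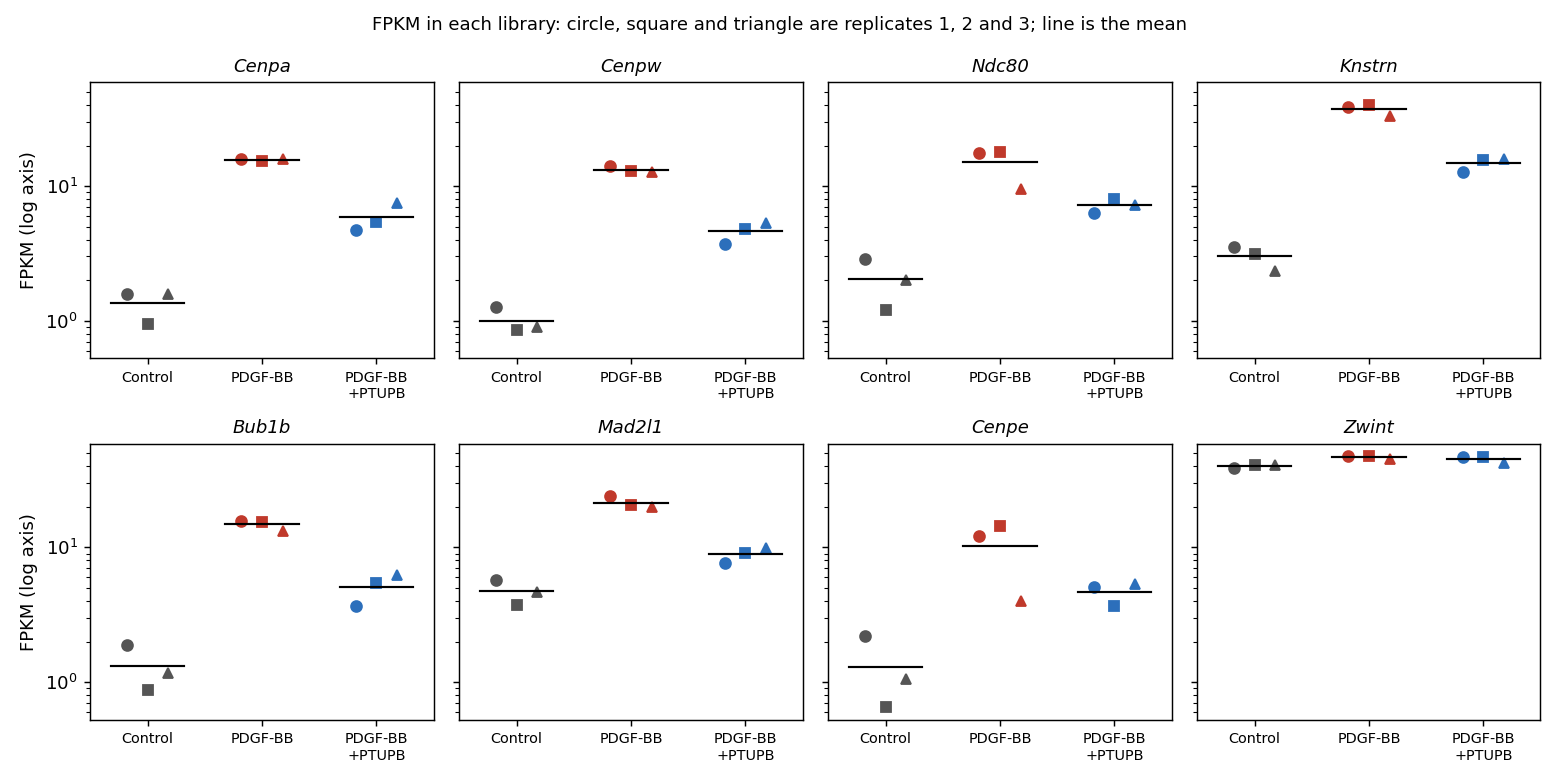
FPKM on a log axis for 8 genes in the 9 libraries; the symbol shape gives the replicate number and the line the group mean. Cenpa, Cenpw, Knstrn, Bub1b and Mad2l1 form 3 separate bands, Cenpe overlaps through PDGF-BB replicate 3 at 3.99, and Zwint stays between 38.95 and 47.5.

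The Ska complex helps kinetochores follow shortening microtubules. Ska1, its microtubule-binding subunit, read 1.44, 0.720 and 1.47 FPKM in Control, 8.64, 8.40 and 7.69 in PDGF-BB and 2.53, 4.98 and 3.29 in PDGF-BB+PTUPB. Ska3 rose 4.98-fold (2.32 ± 0.22, edgeR adjusted p = 5.69e-05), and Ska2 by 2.05-fold from a higher Control level of 5.99 ± 0.708 FPKM. All 3 passed with PDGF-BB.

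Among the genes for motors and spindle proteins, Knstrn (kinastrin, an astrin-binding protein of kinetochore and spindle) had the smallest p: 3.53, 3.13 and 2.34 FPKM in Control, 38.5, 39.7 and 33.3 in PDGF-BB and 12.7, 15.7 and 15.8 in PDGF-BB+PTUPB. Its edgeR adjusted p of 2.72e-06 for the 11.8-fold rise was the smallest of the 43. Cenpe, a kinesin that carries chromosomes to the metaphase plate, read 2.21, 0.650 and 1.05, then 12.2, 14.4 and 3.99, then 5.07, 3.69 and 5.32 FPKM. Cenpf, a large protein of the outer corona, read 2.12, 0.720 and 1.28, then 8.89, 12.7 and 2.75, then 4.43, 3.65 and 4.62 FPKM. In these longest members PDGF-BB replicate 3 lay below 2 (Cenpe) or all 3 (Cenpf) PDGF-BB+PTUPB libraries, although both genes were called higher with PDGF-BB (7.46 and 5.63-fold). Without PDGF-BB replicate 3 the folds were 9.78 for Cenpe and 7.53 for Cenpf, and without Control replicate 2 as well 7.72 and 6.003. Without Control replicate 1 the log2 change of Cenpe was 3.51, beside 2.90 with all libraries. Cenpj, the centriolar gene, read 3.80, 3.47 and 4.29 FPKM in Control and 5.59, 6.21 and 2.78 in PDGF-BB and was called only when PDGF-BB replicate 3 was left out (edgeR adjusted p = 0.00763, and 0.00806 without Control replicate 2 as well; the highest of 20 alternatives was 0.871).

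All 5 checkpoint genes were called higher. Bub1b encodes BUBR1, a part of the mitotic checkpoint complex, and read 1.9, 0.870 and 1.17 FPKM in Control, 15.8, 15.5 and 13.1 in PDGF-BB and 3.67, 5.43 and 6.23 in PDGF-BB+PTUPB, a 10.8-fold rise with PDGF-BB (3.43 ± 0.27, edgeR adjusted p = 2.09e-05). Bub1, the kinase that brings BUBR1 to kinetochores, read 3.70, 1.84 and 2.66, then 17.5, 19.3 and 7.84, then 6.63, 7.46 and 8.14 FPKM. Mad2l1, the MAD2 protein that binds CDC20, read 5.76, 3.74 and 4.64, then 24.0, 20.7 and 19.9, then 7.62, 9.10 and 9.91 FPKM. Groups did not overlap in Bub1b and Mad2l1, while PDGF-BB replicate 3 of Bub1 fell within PDGF-BB+PTUPB. The kinase gene Ttk (MPS1) read 2.32, 1.01 and 1.55 FPKM, then 11.1, 12.9 and 6.16, then 4.45, 4.72 and 5.09. Bub3, the shared partner of BUB1 and BUBR1, began much higher at 15.1, 18.98 and 17.3 FPKM and reached only 26.1, 25.8 and 27.5 in PDGF-BB and 18.8, 22.6 and 21.0 in PDGF-BB+PTUPB. Its 1.47-fold rise passed with an edgeR adjusted p of 0.00204.

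The corona genes of the RZZ complex and its partner Spindly, which bring dynein to kinetochores, rose by 3.14-fold (Zwilch, 1.65 ± 0.17, edgeR adjusted p = 7.39e-05), 3.60-fold (Spdl1) and 1.46-fold (Zw10). Zw10, which also serves in membrane traffic, was tight at 8.53, 8.11 and 8.73 FPKM in Control, 12.95, 13.0 and 12.9 in PDGF-BB and 9.78, 10.6 and 10.3 in PDGF-BB+PTUPB. The shugoshin genes Sgo1 and Sgo2, guardians of centromeric cohesin, rose by 5.01 and 4.93-fold (Sgo1 2.33 ± 0.33, edgeR adjusted p = 5.43e-04). Sgo1 read 0.500, 0.450 and 0.550 FPKM in Control, 3.47, 3.11 and 1.39 in PDGF-BB and 1.24, 1.78 and 1.83 in PDGF-BB+PTUPB. Sgo2 read 1.45, 0.490 and 0.980, then 5.44, 7.59 and 2.01, then 2.61, 2.70 and 3.19 FPKM. In both shugoshins PDGF-BB replicate 3 sat at less than the other PDGF-BB libraries and inside or below PDGF-BB+PTUPB. Without it the folds were 6.21 for Sgo1 and 6.43 for Sgo2, and without Control replicate 2 as well 5.85 and 5.08.

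**Figure D3:**
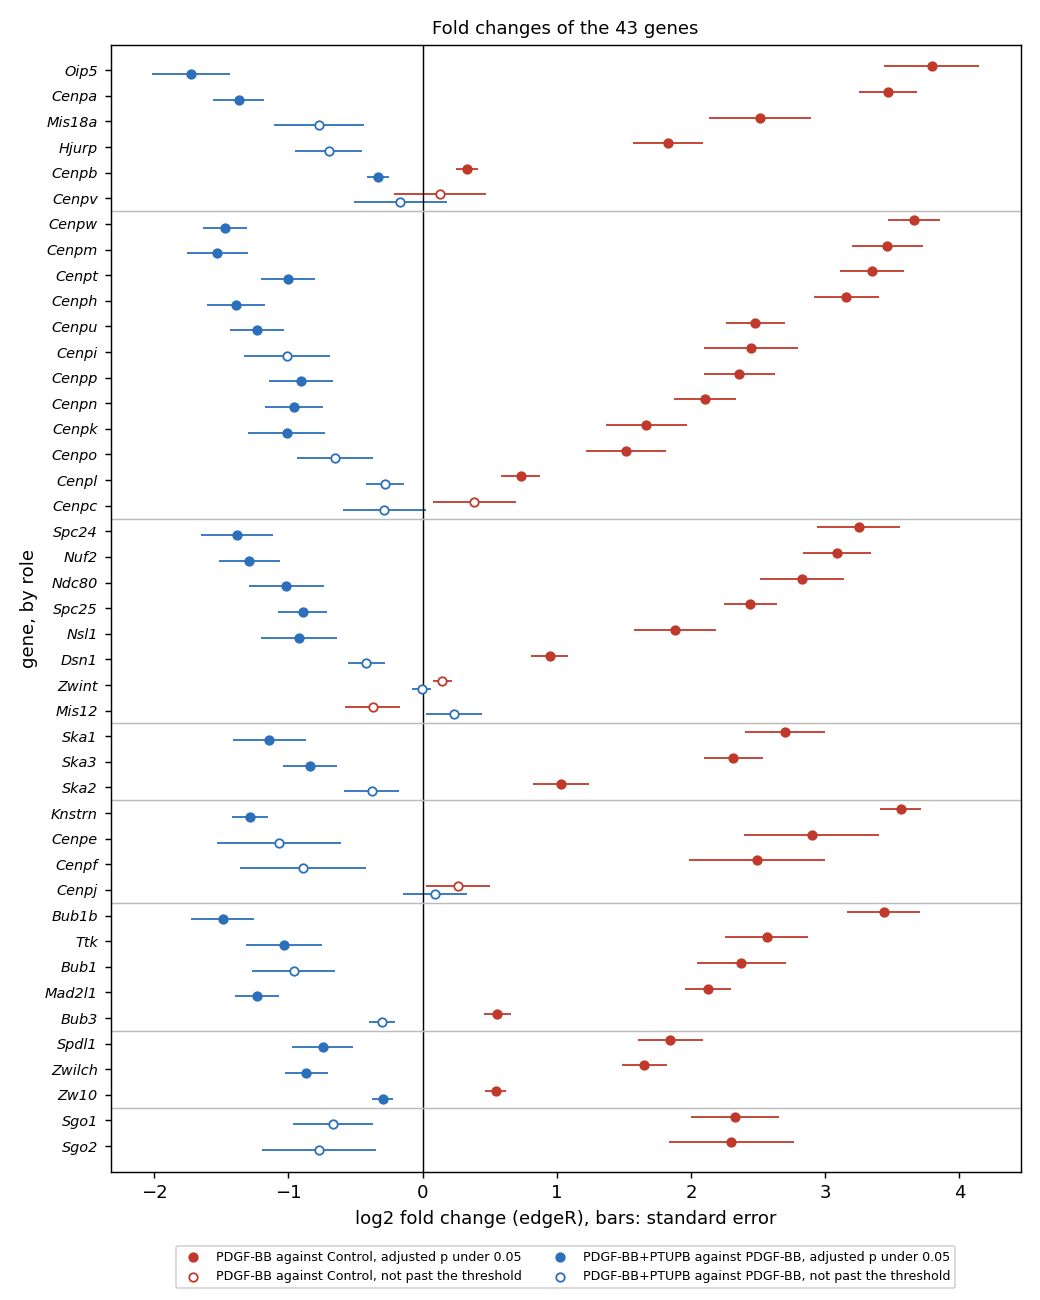
Log2 fold changes with standard errors for the 43 genes by role, red for PDGF-BB against Control and blue for PDGF-BB+PTUPB against PDGF-BB; filled points have an adjusted p under 0.05. All 38 filled red points lie right of 0 and all 25 filled blue points left of it, and the 2 comparisons share the PDGF-BB libraries.

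The fold with PDGF-BB differed between the members of highest and lowest starting level. The 5 members with a Control mean above 10 FPKM (Cenpb, Zwint, Bub3, Mis12) or next below it (Zw10, 8.46 ± 0.316 FPKM) changed by 0.773 to 1.47-fold. By contrast the members with a Control mean under 1 FPKM, namely Oip5, Mis18a, Sgo1, Sgo2, Cenpm, Cenpp, Cenpt and Nsl1, rose by 3.68 to 13.9-fold. Members of low level pass the filter on FPKM only if a treated group is high, so this contrast is a description of these genes. Summed over the 43, FPKM came to 203 to 235 in Control, 509.8 to 613 in PDGF-BB and 322 to 354 in PDGF-BB+PTUPB.

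PDGF-BB+PTUPB against PDGF-BB asks what the pretreatment changed in growth factor-treated cells. Of the 43 genes 25 were called lower and 0 higher (also 0 higher at an unadjusted p under 0.05, with DESeq2 and with limma), where 10.0% of tested genes were called lower and 8.28% higher (edgeR, adjusted p under 0.05). The median log2 change of the 43 was -0.91, beside 0.01 over all tested genes, and in 31 all PDGF-BB+PTUPB libraries lay below all PDGF-BB libraries (20.7% of tested genes). The 18 without a call were Ska2, Cenpv, Hjurp, Mis18a, Sgo1, Sgo2, Cenpc, Cenpi, Cenpl, Cenpo, Cenpe, Cenpf, Cenpj, Dsn1, Mis12, Zwint, Bub1 and Bub3. The count ranged from 14 (without PDGF-BB+PTUPB replicate 1) to 33 (without PDGF-BB replicate 3) when single libraries were left out, with 15 without PDGF-BB+PTUPB replicate 3 and 16 without PDGF-BB replicate 1.

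Oip5 fell to 0.302 of its PDGF-BB level (-1.73 ± 0.29), Cenpm to 0.346 and Bub1b to 0.356. The smallest adjusted p again belonged to Knstrn, at 5.76e-04 for a log2 change of -1.29 ± 0.13 (edgeR). Cenpw changed by -1.47 ± 0.17 (edgeR adjusted p = 7.49e-04) and Cenpa by -1.37 ± 0.19 (0.00175). This comparison and that of PDGF-BB with Control share the PDGF-BB libraries.

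By role, 8 of 12 inner kinetochore genes, 5 of 8 outer kinetochore genes, 3 of 6 centromeric chromatin genes, 3 of 5 checkpoint genes, 2 of 3 Ska genes, 1 of 4 motor, corona and spindle genes, 0 of 2 shugoshins and all 3 of Zw10, Zwilch and Spdl1 were called lower. Of the 25 calls 11 ended when some single library was left out, those of Cenpb, Cenpk, Cenpn, Cenpp, Ndc80, Nsl1, Ska1, Ska3, Spdl1, Ttk and Zw10. Zw10 and Spdl1 lost theirs without PDGF-BB replicate 1 or 2 or any single PDGF-BB+PTUPB library, and Spdl1 also without Control replicate 1 or 3 (edgeR adjusted p up to 0.102 and 0.159), while Zwilch was called in all 20 alternatives. All 4 NDC80 subunits fell, from -0.90 ± 0.18 in Spc25 to -1.38 ± 0.27 in Spc24 on the log2 scale, and the smallest p of the outer layer was that of Nuf2 (-1.29 ± 0.23, edgeR adjusted p = 0.00482). The call for Ndc80 ended without Control replicate 3, without PDGF-BB replicate 1 or 2 and without any single PDGF-BB+PTUPB library (edgeR adjusted p up to 0.115). Among checkpoint genes Mad2l1 had the smallest p (-1.23 ± 0.16, edgeR adjusted p = 0.00149), and Bub3, at -0.30 ± 0.10, missed the threshold (0.0575). Zwilch changed by -0.87 ± 0.16 (edgeR adjusted p = 0.00574) and Ska1 by -1.14 ± 0.27 (0.0169). The Ska1 call ended without PDGF-BB replicate 1 or PDGF-BB+PTUPB replicate 1 or 3 (edgeR adjusted p up to 0.0674).

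The shugoshins had no call, with log2 changes of -0.67 ± 0.30 for Sgo1 (edgeR adjusted p = 0.149) and -0.78 ± 0.42 for Sgo2 (0.240). Nor had the long corona genes Cenpe (-1.07 ± 0.46, edgeR adjusted p = 0.136) and Cenpf (-0.89 ± 0.47, 0.224). Their point estimates were of the size of called members, and their errors were larger. Each of these 4 was called lower when PDGF-BB replicate 3 was left out, at edgeR adjusted p of 0.00902 (Sgo1), 0.0282 (Sgo2), 0.0190 (Cenpe) and 0.0224 (Cenpf), as were Bub1 (0.00494), Ska2 (0.0120), Cenpc (0.0113), Cenpi (0.0143) and Dsn1 (0.0336). Cenpp alone went the other way and missed the threshold (edgeR adjusted p = 0.0508). Without Control replicate 2 as well, the group held 35 genes called lower. The shares of tested genes given here come from the fit of all 9 libraries, so counts from other fits have no background beside them.

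The reading of PDGF-BB replicate 3 depended on exonic length among these genes as it did over all genes. It was the lowest PDGF-BB library in 31 of the 43 (35.5% of all tested genes), and in all 12 members with an exonic length of at least 3000 bases, a limit set after the values were seen. Its median deviation from the other 2 PDGF-BB libraries was -1.05 on the log2(CPM + 1) scale in those 12 and -0.14 in the 31 shorter ones. Cenpf (10069 bases) read at 0.255 of the mean of the other 2 libraries and Cenpe (7621 bases) at 0.301, whereas Cenpw (1601 bases) differed by -0.06 and Zwint (1831 bases) by -0.05 on the log2 scale. Bub1b (4081 bases) differed by -0.23, and Dsn1 (3232 bases) by -0.25. Some shorter members also read low, with Ska2 (1189 bases) at -0.77, Spdl1 (2292 bases) at -0.66 and Cenpk (1641 bases) at -0.56. The highest was Cenpv (753 bases) at 0.35. Control replicate 2 showed the same order, with a median of -0.76 in the long and -0.29 in the short members, and was the lowest Control library in 32 of 43 (38.4% of tested genes). PDGF-BB+PTUPB replicate 1 was the lowest of its group in 29 of 43 (37.3% of tested genes), and in 7 of the 12 long members. Across the 43 genes the Spearman correlation of deviation and length was -0.582 in PDGF-BB replicate 3 and -0.492 in Control replicate 2. All genes of a library share its preparation, so these are descriptions.

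**Figure D4:**
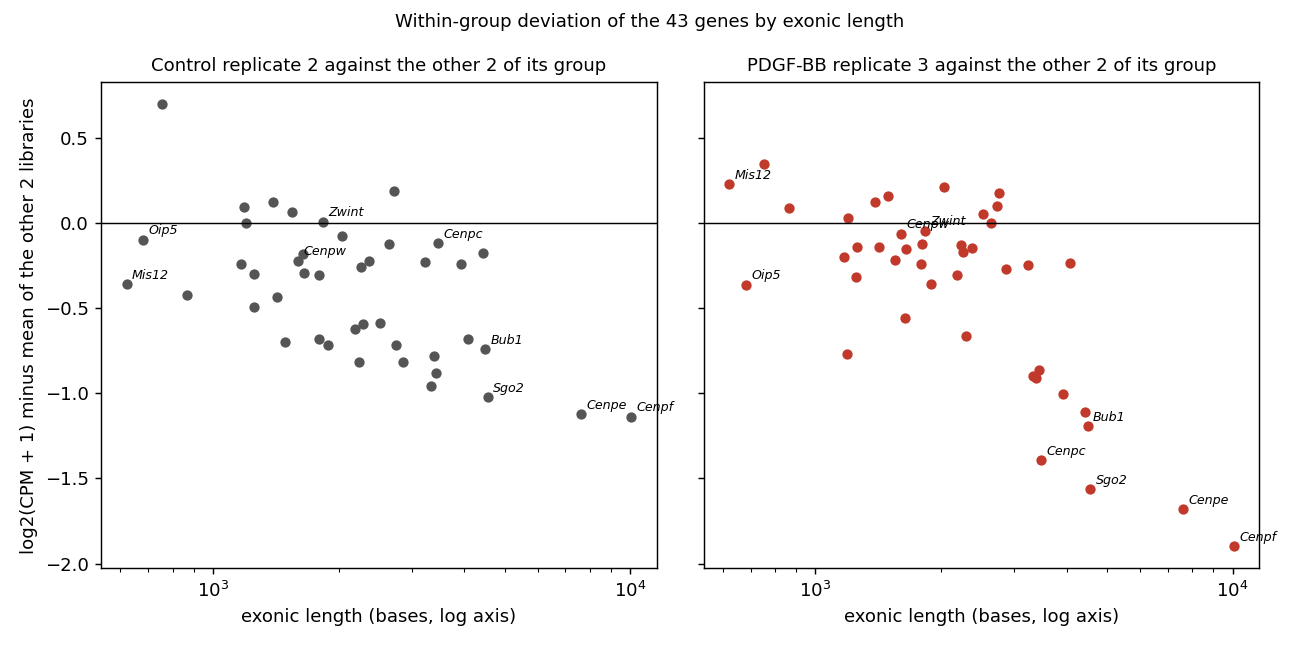
Deviation of Control replicate 2 (left) and PDGF-BB replicate 3 (right) from the mean of the other 2 libraries of the group, on the log2(CPM + 1) scale, against exonic length on a log axis, 1 point per gene. On the right, genes under 3000 bases run from -0.77 (Ska2) to 0.35 (Cenpv), while Cenpe and Cenpf lie at -1.68 and -1.9.

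PDGF-BB+PTUPB against Control asks what difference from cells given DMSO alone was left. Of the 43 genes 23 were called higher and 0 lower (also 0 lower at an unadjusted p under 0.05, with DESeq2 and with limma), where 1.89% of tested genes were called higher and 0.313% lower (edgeR, adjusted p under 0.05). The median log2 change was 1.43 beside -0.01 over all tested genes, and in 36 of 43 all PDGF-BB+PTUPB libraries lay above all Control libraries (12.1% of tested genes). The count was less firm than that for PDGF-BB: it was 10 without PDGF-BB+PTUPB replicate 2 or 3, 11 without Control replicate 3, 16 without Control replicate 2 and 29 without PDGF-BB replicate 3.

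Knstrn stayed 4.84-fold above Control (2.28 ± 0.16, edgeR adjusted p = 3.86e-04), Cenpt 5.08-fold, Cenpw 4.55-fold (adjusted p = 9.58e-04), Cenpa 4.27-fold (0.00110) and Oip5 4.19-fold. Leaving out replicate 2 or 3 of either group ended the Oip5 call (edgeR adjusted p up to 0.106). The smallest p of their roles belonged to Spc25 (2.92-fold, 1.55 ± 0.20, edgeR adjusted p = 0.00390), Bub1b (3.85-fold, 1.94 ± 0.27, 0.00502), Ska3 (2.79-fold, 1.48 ± 0.22, 0.00715), Sgo1 (3.15-fold, 1.66 ± 0.33, 0.0306) and Zwilch (1.72-fold, 0.79 ± 0.17, 0.0416). Of the 23 calls 13 ended when some single library was left out, those of Cenpn, Cenpp, Cenpu, Mad2l1, Mis18a, Ndc80, Oip5, Sgo1, Ska1, Spc24, Spdl1, Ttk and Zwilch. Mad2l1 was 1.86-fold above Control (edgeR adjusted p = 0.0275), a call that ended when Control replicate 3 or PDGF-BB+PTUPB replicate 2 or 3 was left out (up to 0.145). Cenpb was level with Control at 0.997-fold, with 61.1 ± 0.948 FPKM in PDGF-BB+PTUPB and 60.1 ± 1.9 in Control. Bub3 (1.19-fold), Zw10 (1.19-fold) and Zwint (1.10-fold) did not pass, at edgeR adjusted p of 0.299, 0.178 and 0.437.

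Other genes of the same machinery gave the following counts, where 17.3% of tested genes were called higher with PDGF-BB and 10.0% lower with PTUPB. Of 14 tested further kinetochore, corona and loading genes 9 were called higher with PDGF-BB and 6 lower with PTUPB. The astrin gene Spag5, whose product works with kinastrin, changed by 2.52 and -1.04, and Pmf1, the remaining MIS12 complex subunit, by 2.12 and -1.05 on the log2 scale. Kntc1 (ROD, the remaining RZZ subunit) changed by 2.52 and -1.21, both called, while Knl1, the scaffold that BUB proteins bind, changed by 1.23 and -0.63 and had no call (edgeR adjusted p = 0.0811 and 0.410). Knl1 read 3.80, 5.68 and 1.19 FPKM in PDGF-BB, again lowest in replicate 3.

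Of 9 tested checkpoint and anaphase genes 6 were called higher with PDGF-BB and 4 lower with PTUPB. Plk1, a mitotic kinase, changed by 3.26 and -1.18, Pttg1 (securin) by 3.79 and -1.58 and Cdc20, the target of the checkpoint, by 3.54 and -1.41. The 4 chromosomal passenger subunits (Aurkb, Birc5, Cdca8, Incenp) and Haspin, a histone kinase that recruits them, were called in both comparisons, with Birc5 at 3.51 and -1.61, Cdca8 at 3.08 and -1.34 and Aurkb at 2.06 and -0.89. Of 7 S phase genes all were called higher with PDGF-BB and lower with PTUPB, with Tyms at 1.94 and -1.06, Rrm2 at 1.92 and -0.72, and the helicase gene Mcm3 at 1.98 and -1.39. Against Control, 2 of these 7 S phase genes were still called higher with PTUPB, beside 23 of the 43 kinetochore genes and 1.89% of tested genes. The median log2 change of the 7 against Control was 0.59. In 4 of them all PDGF-BB+PTUPB libraries lay above all Control libraries (12.1% of tested genes). Whether the lists differ was not tested.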

How the data were processed

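The authors deposited 1 table with an estimated count (reads assigned to a gene, not normalized) and an FPKM value for each gene in each library. Per the submitters' processing notes, cutadapt 1.9.1, HISAT2 2.0.1 and HTSeq 0.6.1 were used; the notes name a mouse build, mm10, while all 32623 identifiers are rat, so no coordinates of the table are printed. The deposited FPKM values lay within 0.006 of values recomputed from the counts and exonic lengths in 100% of cases. Of the genes, 978 (6 of them members) had a count that was not whole, and counts were rounded. The strand used in counting is not given in the sources used here.

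Genes with FPKM of at least 1 in at least 3 libraries (11197) were fitted with edgeR 4.0.16 in R 4.3.3: TMM normalization, a quasi-likelihood model of the 9 libraries with treatment group alone (6 residual degrees of freedom), two-sided p-values adjusted by Benjamini-Hochberg over all tested genes and a threshold of 0.05. Fold changes come from the counts, levels from the deposited FPKM. The fit was tested on simulated data. limma 3.58.1 and DESeq2 1.42.0 served as alternatives, with other scalings, filters and pseudocounts, a replicate block and each library left out (19 planned, 1 added later). Libraries of a group differed by more than counting noise. The members, gene lists and tests were chosen with earlier results of these data known. Markers of smooth muscle, endothelium, leukocytes and adventitial fibroblasts were summed. Every member may be named; 24 have a value for every library, and the gene of smallest p in each role has its fold change, SE and adjusted p. Promoters are from RefSeq (GRCr8).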

Additional observations from a re-analysis of the deposited data

How the results depend on the processing

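Over 20 alternatives the count called higher with PDGF-BB stayed between 38 and 40 of 43, and the counts in the opposite direction were 0 in all 3 comparisons. With limma on log2(FPKM + 1), which understates changes of low genes, the median log2 change was 1.76 with PDGF-BB and 0.90 for PDGF-BB+PTUPB against Control. Leaving out 1 library gave 14 to 33 members lower with PTUPB and 10 to 29 higher than Control; DESeq2 gave 30 and 27. Removing the within-group length trend, an alternative chosen after seeing the data whose degrees of freedom were not adjusted for it, gave 29 and 23. The correlations of deviations ran from -0.28 to 0.19 between same-numbered libraries and from -0.28 to 0.27 between differently numbered ones. The 2 libraries that stood apart by gene length carry different numbers, so these correlations cannot tell whether replicate numbers pair the libraries. The replicate block gave 38 higher with PDGF-BB, 19 lower with PTUPB and 13 higher than Control. Values without a call changed sign in 5 genes, and the cause was not tested. Cenpv spanned -0.13 to 0.57 (PDGF-BB), -0.27 to 0.0196 (PTUPB against PDGF-BB) and -0.30 to 0.41 (against Control) with 1 library out; against Control it was 0.0556 and 0.11 with limma (pseudocount 1 and 0.1), 0.0169 with the block and 0.41 with Control replicate 2 and PDGF-BB replicate 3 both out, which gave 0.0204 against PDGF-BB. Against PDGF-BB with 1 library out, Cenpc spanned -0.64 to 0.0429, Cenpj -0.19 to 0.30 (-0.19 with both out) and Zwint -0.0321 to 0.042. Against Control, Cenpb was 0.0223 with library totals, 0.0221 and 0.0225 with limma (same pseudocounts), 0.003 with only the groups compared and -0.0357 to 0.0272 with 1 library out, and Cenpc spanned -0.0003 to 0.17.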
